A study of Mus musculus with 6 samples.

Results

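Voltage-gated sodium and calcium channel genes are described here in adult neural stem cells treated with PluriSIn#2, set against DMSO. The members are the genes in the deposited count table whose symbol starts with Scn followed by a number and a or b, or with Cacna, Cacnb or Cacng. The rule found 39 of the 24421 genes listed, 13 sodium and 26 calcium channel genes. The rule reads symbols alone and uses no expression value, but it was chosen with earlier results of these data known. Scn2a1, the older symbol of the brain sodium channel gene now called Scn2a, has a trailing digit and falls outside the rule, so it is given separately.

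The treated group is 3 libraries of primary neural stem cells from the subventricular zone, the neurogenic lining of the lateral ventricles, after 3 days in 20 µM PluriSIn#2, which the series' design text calls a topoisomerase IIA inhibitor. The control group is 3 libraries of the same cells with the solvent DMSO. All cells were wild type, from C57BL/6 mice at postnatal day 60, kept in EGF and FGF2 at 20 ng/ml, with the medium changed after 24 h. No label says how many animals were used or that replicates were cultured apart. The p-values therefore refer to the scatter of these libraries alone, and that scatter may be purely technical. The titles call all 3 treated libraries PluriSIn#2, but the treatment field of replicates 2 and 3 carries other numbers after PluriSIn, so results were also computed with treated replicate 1 alone. In that fit the lone treated library is assumed to vary like the DMSO libraries, which alone supply the spread.

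Voltage-gated sodium channels open within a fraction of a millisecond of depolarization and carry the upstroke of the action potential. Voltage-gated calcium channels turn depolarization into calcium entry, which drives transmitter release, contraction and transcription. Each is built around a large pore-forming alpha subunit. Sodium channels add beta subunits, single-pass membrane proteins with an immunoglobulin domain that also act in cell adhesion. High-voltage-activated calcium channels add an extracellular alpha2delta and a cytosolic beta subunit. Most proteins encoded by the Cacng genes are better known as TARPs, auxiliary subunits of AMPA-type glutamate receptors. Dividing progenitors are not excitable in the way neurons are, but glial and progenitor cells are known to transcribe many of these genes.

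Libraries held between 16670962 and 17827158 counts in PluriSIn#2 and between 18186070 and 19241869 in DMSO. The topoisomerase gene Top2a had 5.58, 7.46 and 4.98 CPM (counts scaled to library size, with TMM factors) in PluriSIn#2 and 853, 887 and 893 CPM in DMSO. The progenitor genes Nes and Sox2 were present in both groups, at 437 ± 3.21 and 32.7 ± 0.340 CPM in PluriSIn#2 and at 1186 ± 20.4 and 49.0 ± 2.31 CPM in DMSO (mean ± SD, n = 3 each). Of 14417 genes tested with edgeR's quasi-likelihood test and Benjamini-Hochberg adjustment at a threshold of 0.05, 82.6% were called, 41.7% higher and 40.9% lower, so a call by itself is common here. The values of the groups did not overlap for 82.7% of the tested genes. Markers of other cells moved between the same groups. All 8 tested of 10 macrophage markers were higher, with a summed level of 151 to 155 CPM in PluriSIn#2 and 2.42 to 3.02 CPM in DMSO, where Trem2 was at 0. Of 10 oligodendrocyte precursor markers 8 were lower (5300 to 5402 CPM in PluriSIn#2, 5744 to 5842 CPM in DMSO), all 10 astrocyte and quiescent stem cell markers were higher (15981 to 16225 CPM against 4295 to 4315 CPM), and none of either list was at 0. The sum for precursor markers was carried by Ptprz1 and Olig1. Of the less abundant ones 5 fell at least 2-fold, while Cnksr3 was not called. In bulk libraries such as these, fewer cells of a type and less RNA per cell cannot be told apart.

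Most of the channel genes that could be tested were higher in PluriSIn#2. Of the 39, 38 had a read and 32 passed the filter on low counts. In PluriSIn#2 21 of these 32 were called higher (65.6%, beside 41.7% of all genes tested) and 5 were called lower (15.6%, beside 40.9%), and 6 were not called. Their median log2 fold change was 0.75, and that of all genes tested was 0.01. A change of 2-fold or more was seen in 15 members that rose and 2 that fell, where 16.3% and 11.7% of all genes tested changed as much. Values of the groups did not overlap for 27 of the 32, and for 82.7% of all genes tested. The filter itself shapes these counts. Scn4b, Cacna2d4, Cacng2 and Cacng3 reached its cutoff in all treated libraries but not in all DMSO libraries, and Scn7a the reverse. For such genes the filter favours a difference between the groups. Of the 27 that reached the cutoff in every library of both groups, 17 were higher, 4 lower and 6 not called. Among potassium channel genes (Kcn symbols) 31 of 70 tested were higher and 24 lower, with a median of 0.16, and among ligand-gated receptor genes 20 of 34 were higher and 10 lower, with a median of 0.44. These differences between families were not tested.

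**Figure D1:**
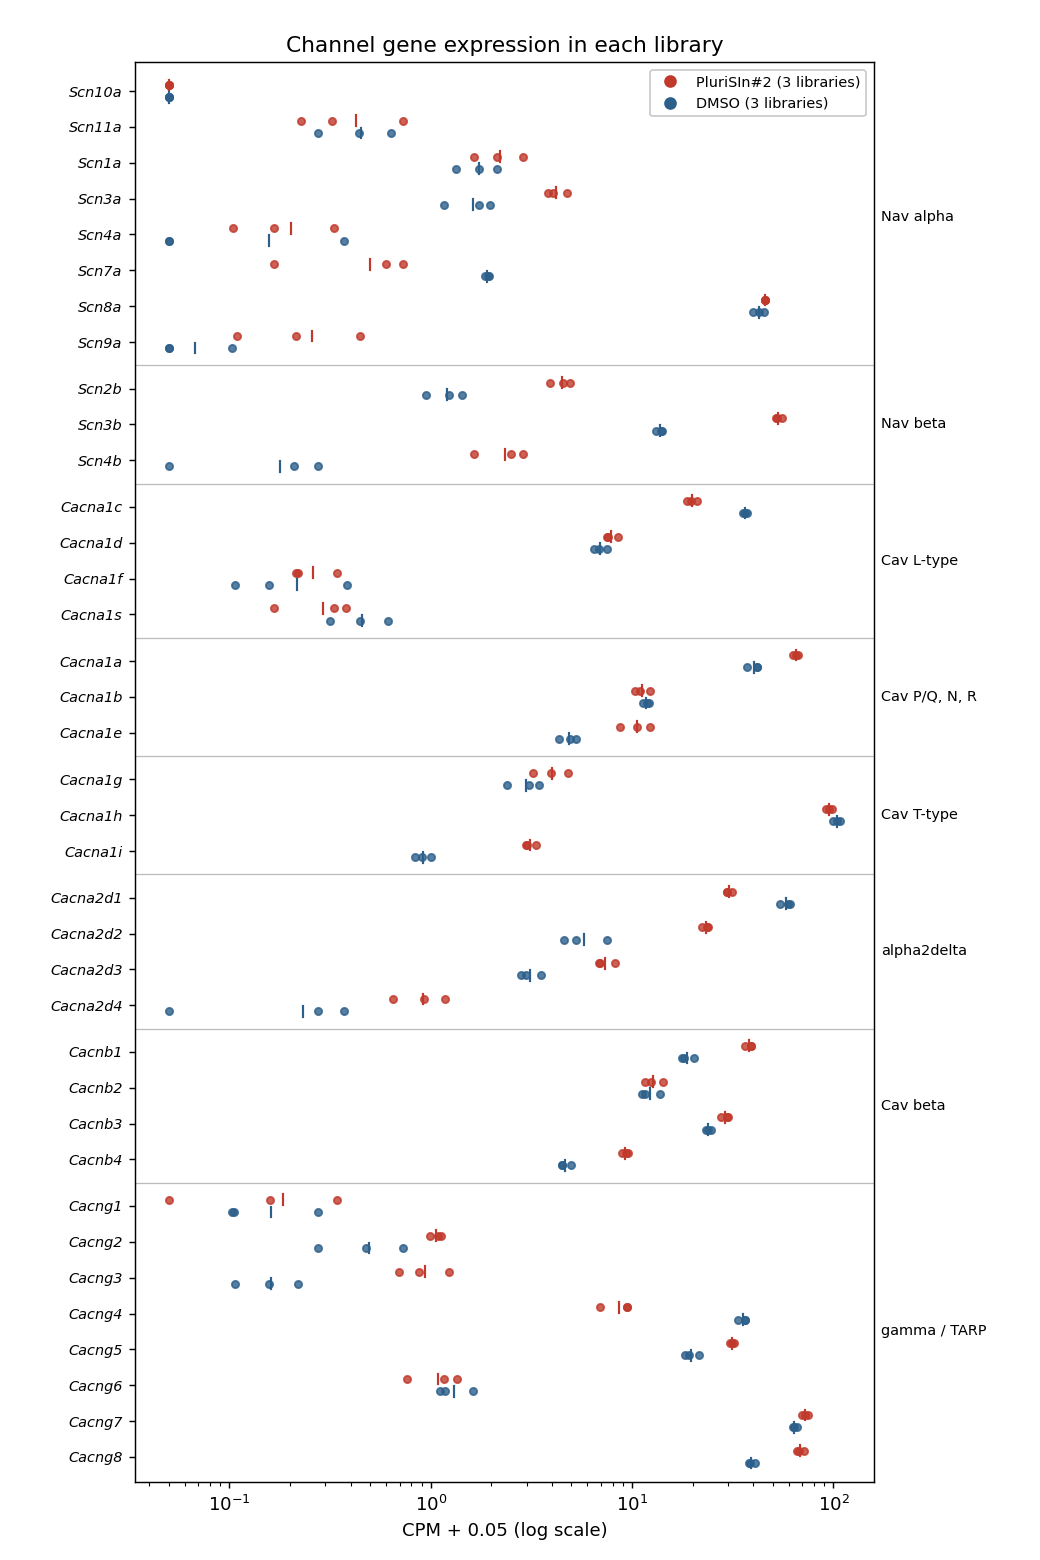
CPM in each library for 37 of the channel genes, grouped by role, on a log axis after adding 0.05 so that a count of 0 can be drawn. Points are libraries and short vertical lines are group means. The PluriSIn#2 points of Scn2b, Scn3b and Scn4b sit to the right of all DMSO points, and those of Cacng4, Cacna2d1 and Cacna1c to the left.

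The sodium channel beta subunit genes Scn2b, Scn3b and Scn4b were higher in the treated cells. Scn3b, whose product binds alpha subunits without a covalent bond, had 51.6, 55.3 and 52.5 CPM in PluriSIn#2 and 14.1, 13.1 and 13.9 CPM in DMSO. The lowest treated library was far above the highest control library, with a log2 fold change of 1.96 (SE 0.066, edgeR adjusted p = 3.82e-45). The gene covers positions 40269217 to 40291618 of chromosome 9, plus strand (GENCODE annotation of GRCm38, which is mm10).

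Scn2b and Scn4b encode subunits held to the alpha subunit by a disulfide bond, and both were scarce. Scn2b had 4.51, 4.88 and 3.86 CPM in PluriSIn#2 and 1.18, 0.900 and 1.39 CPM in DMSO, a log2 fold change of 1.93 (SE 0.22, edgeR adjusted p = 4.98e-13). Scn4b, known for its part in resurgent sodium current, had 2.82, 2.47 and 1.58 CPM in PluriSIn#2 and 0, 0.225 and 0.160 CPM in DMSO. Neither gene's groups overlapped. Scn4b had the largest log2 fold change among the members tested (4.09, SE 0.44, edgeR adjusted p = 4.90e-14), which rests on 122 reads in the treated group and 7 in the control group. It was 4.70 without DMSO replicate 2 and 3.54 without DMSO replicate 1. Scn2b and Scn4b are neighbours on chromosome 9, on the plus strand and 8.32 kb apart.

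Among the pore-forming sodium channel genes the most abundant, Scn8a, did not pass the test while others changed in both directions. Scn8a, whose channel sits at axon initial segments and nodes of Ranvier, had 45.6, 45.8 and 45.6 CPM in PluriSIn#2 and 42.4, 45.1 and 39.9 CPM in DMSO. The treated values lay just above the highest control value, and the log2 fold change of 0.11 (SE 0.054) missed the threshold (edgeR adjusted p = 0.0646). It was called with library totals alone as the scaling (log2 fold change 0.17, edgeR adjusted p = 0.00232), with a filter at 1 CPM (0.11, edgeR adjusted p = 0.0480) and without DMSO replicate 2 (0.15, edgeR adjusted p = 0.0186). Scn3a, a sodium channel gene most active in the developing brain, had 3.78, 4.00 and 4.68 CPM in PluriSIn#2 and 1.12, 1.69 and 1.92 CPM in DMSO, which did not overlap (log2 fold change 1.39, SE 0.21, edgeR adjusted p = 6.66e-09).

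Scn7a went the other way. It encodes Nax, a relative that glia use as a sensor of extracellular sodium and that is not opened by voltage as its relatives are. Scn7a had 0.677, 0.548 and 0.117 CPM in PluriSIn#2 and 1.90, 1.80 and 1.87 CPM in DMSO, from 12, 10 and 2 reads in the treated libraries and 34, 32 and 35 in the controls. All treated values were lower than all controls (log2 fold change -2.02, SE 0.35, edgeR adjusted p = 2.27e-07). Scn1a, a channel of inhibitory interneurons, was not called, with 2.82, 2.08 and 1.58 CPM in PluriSIn#2 and 1.68, 2.08 and 1.28 CPM in DMSO (0.37, SE 0.25, edgeR adjusted p = 0.159). Its groups overlapped, and the fit with treated replicate 1 alone, whose spread comes from the DMSO libraries, gave 0.75 (edgeR adjusted p = 0.0327). Scn2a1, outside the rule, was higher, at 13.7 ± 1.34 CPM in PluriSIn#2 and 6.24 ± 0.510 CPM in DMSO (SD, n = 3 each, 1.14, SE 0.11, edgeR adjusted p = 5.67e-16).

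The sodium channel genes Scn4a, Scn9a, Scn10a and Scn11a were at the limit of this depth and were not tested. Scn9a, Scn10a and Scn11a belong to pain-sensing neurons and Scn4a to skeletal muscle. Scn9a had 11 reads over the treated libraries and 1 over the controls, a ratio of 11.8 per total count with a 95% exact interval from 1.72 to 509 that covers counting error only. With no filter on low counts Scn9a was called higher (3.07, SE 1.30, edgeR adjusted p = 0.0289). Its reads were 7, 3 and 1 in the PluriSIn#2 libraries and 0, 0 and 1 in the DMSO libraries. In the authors' own test its adjusted p was 0.0676, above the threshold. Scn11a had 20 and 22 reads and Scn4a 8 and 6 in PluriSIn#2 and DMSO. Scn10a had 0 reads in all 6 libraries, which allows up to 0.0579 CPM in the treated group and 0.0538 CPM in the control group, from a floor of 3 counts per group over raw library totals without TMM factors. Scn1a, Scn9a and Scn7a lie side by side on the minus strand of chromosome 2 with gaps of 39.2 kb and 38.5 kb. In that row the 3 genes were not called, not tested and lower.

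Base sequence upstream of the start of Scn4b and Scn7a is shown because these sodium channel genes had the largest rise and the only fall among those tested. Each run is the 250 bases before the RefSeq start on GRCm38.p6, in the direction of transcription, with capitals marking GC boxes (GGGCGG or its reverse complement CCGCCC). The Scn4b run is chr9:45138374-45138623 on the plus strand, with no GC box and 66.0% G and C. GENCODE starts Scn4b at 45138395, so by that annotation most of the run lies inside the gene. The Scn7a run is chr2:66784911-66785160 on the minus strand, with 1 GC box and 53.2% G and C.
Scn4b: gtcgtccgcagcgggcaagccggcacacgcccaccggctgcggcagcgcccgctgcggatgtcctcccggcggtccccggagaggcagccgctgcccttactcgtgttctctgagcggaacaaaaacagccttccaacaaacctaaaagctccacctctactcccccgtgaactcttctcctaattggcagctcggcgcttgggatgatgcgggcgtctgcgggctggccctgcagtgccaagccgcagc
Scn7a: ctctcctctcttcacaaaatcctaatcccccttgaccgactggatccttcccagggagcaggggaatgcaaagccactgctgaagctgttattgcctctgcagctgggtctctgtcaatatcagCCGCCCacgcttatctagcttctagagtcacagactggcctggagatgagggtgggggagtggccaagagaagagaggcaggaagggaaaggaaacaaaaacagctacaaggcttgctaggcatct
The median over all 32851 promoter windows of the table was 52.4% G and C in the same 250 bases.

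**Figure D2:**
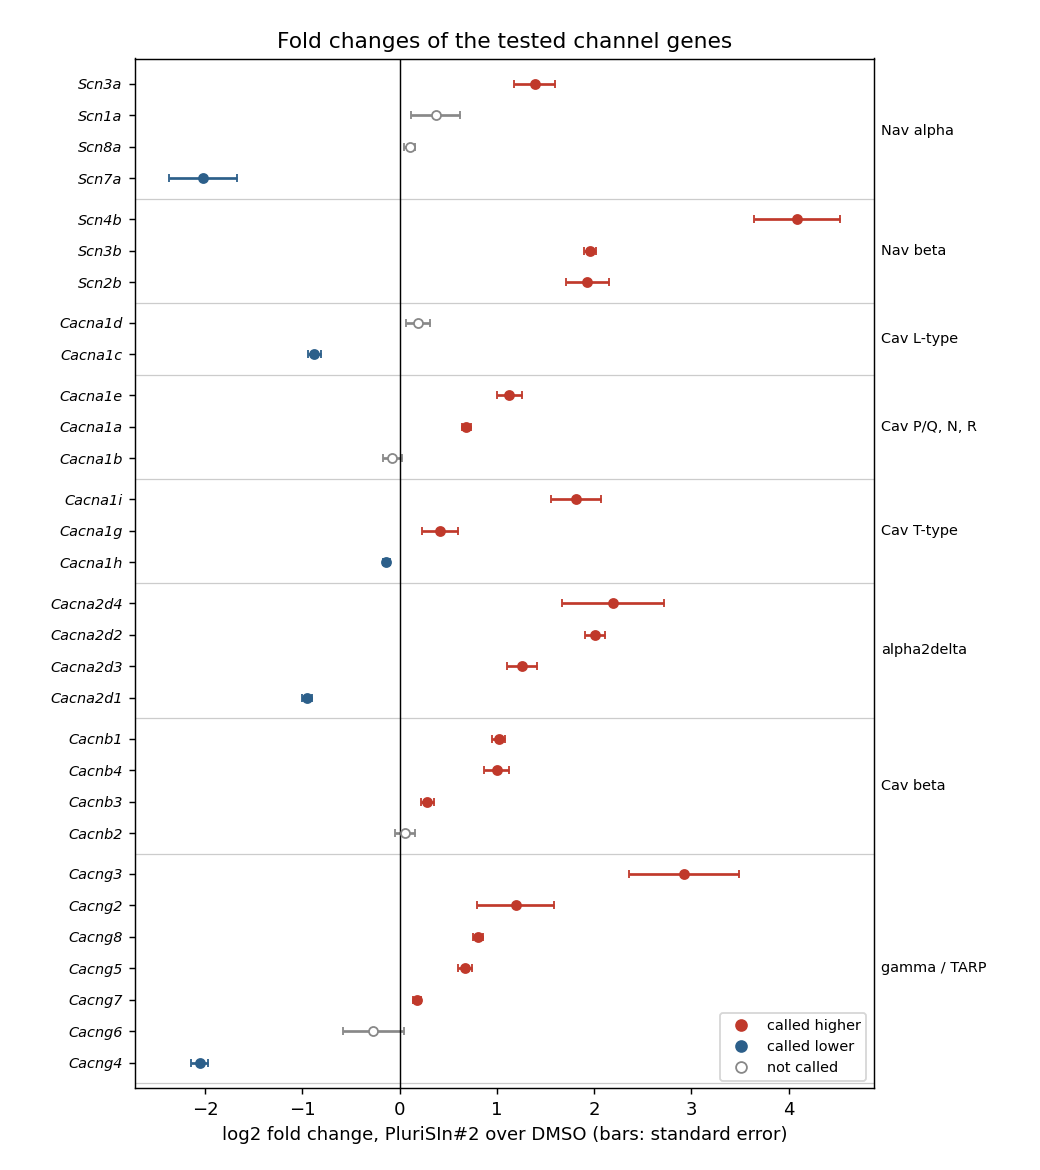
Log2 fold change of PluriSIn#2 over DMSO for 30 of the channel genes tested, grouped by role, with standard errors from the edgeR fit. Filled points were called at an adjusted p under 0.05 and open points were not. Scn2b, Scn3b and Scn4b lie between 1.93 and 4.09, and the alpha2delta and gamma groups hold genes on both sides of 0.

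The pore-forming calcium channel genes moved in both directions. Among L-type genes, whose channels respond to dihydropyridines and couple calcium entry to transcription and contraction, Cacna1c was lower. It had 21.0, 19.6 and 18.7 CPM in PluriSIn#2 and 37.2, 36.2 and 35.7 CPM in DMSO, with the groups well apart (log2 fold change -0.88, SE 0.067, edgeR adjusted p = 1.93e-21). Cacna1d, the other brain L-type gene, was not called, at 7.83 ± 0.577 CPM in PluriSIn#2 and 6.90 ± 0.532 CPM in DMSO (SD, n = 3 each, 0.18, edgeR adjusted p = 0.158). Counts of Cacna1d may be affected by Chdh, whose exons on the other strand cover 4.67% of the exonic length of Cacna1d. No source used here gives the strand setting of the counting. Cacna1f of the retina and Cacna1s of skeletal muscle were not tested, with 11 and 13 reads in PluriSIn#2 and 9 and 22 in DMSO.

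Channels of the P/Q, N and R types carry the calcium that releases transmitter at nerve endings. Cacna1a, the P/Q-type gene and the most abundant of them, had 66.4, 65.3 and 62.6 CPM in PluriSIn#2 and 41.9, 41.8 and 37.1 CPM in DMSO. All treated values were higher than all controls (log2 fold change 0.69, SE 0.051, edgeR adjusted p = 3.40e-22). Cacna1e, the R-type gene, had 8.68, 10.6 and 12.2 CPM in PluriSIn#2 and 4.87, 5.23 and 4.27 CPM in DMSO, again without overlap (1.13, SE 0.13, edgeR adjusted p = 5.55e-13). Cacna1b, the N-type gene, was not called, and its values of 10.2 to 12.3 CPM in PluriSIn#2 enclosed those of 11.3 to 12.1 CPM in DMSO (-0.07, SE 0.100, edgeR adjusted p = 0.5001).

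T-type channels open near the resting potential and are found in progenitor cells as well as in bursting neurons. Cacna1h was the most abundant pore-forming gene per length, and it hardly moved. It had 94.5, 97.9 and 91.4 CPM in PluriSIn#2 and 108, 104 and 99.7 CPM in DMSO, lower in all treated libraries (log2 fold change -0.13, SE 0.038, edgeR adjusted p = 0.000996). Scaling by library totals alone ended that call (-0.06, edgeR adjusted p = 0.109). Cacna1i, a T-type gene of neurons, had 2.93, 2.96 and 3.28 CPM in PluriSIn#2 and 0.952, 0.788 and 0.853 CPM in DMSO. Its mean was 3.54-fold higher with no overlap (1.81, SE 0.26, edgeR adjusted p = 8.83e-10). The call of Cacna1g was weak, with 3.89, 3.18 and 4.74 CPM in PluriSIn#2 and 2.35, 3.04 and 3.41 CPM in DMSO. These values overlapped (0.42, SE 0.19, edgeR adjusted p = 0.0334). The Cacna1g call was lost with DESeq2 (adjusted p = 0.101), without DMSO replicate 1 (0.28, edgeR adjusted p = 0.188), without PluriSIn#2 replicate 1 (0.42, edgeR adjusted p = 0.0598), without PluriSIn#2 replicate 3 (0.26, edgeR adjusted p = 0.248) and with treated replicate 1 alone (0.40, edgeR adjusted p = 0.161).

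Among the alpha2delta genes Cacna2d1 was lower and Cacna2d2, Cacna2d3 and Cacna2d4 were higher. Their proteins help channels reach the membrane, and the products of Cacna2d1 and Cacna2d2 bind the gabapentinoid drugs. Cacna2d1 had 29.6, 29.6 and 31.2 CPM in PluriSIn#2 and 54.4, 60.5 and 59.6 CPM in DMSO, lower in every treated library (log2 fold change -0.95, SE 0.055, edgeR adjusted p = 1.40e-28). Cacna2d2 had 22.2, 23.7 and 23.6 CPM in PluriSIn#2 and 5.21, 4.56 and 7.41 CPM in DMSO. It was 4.05-fold higher in the mean, with no overlap (2.01, SE 0.104, edgeR adjusted p = 9.05e-32). Cacna2d3 had 6.77, 8.17 and 6.91 CPM in PluriSIn#2 and 2.74, 2.93 and 3.47 CPM in DMSO, which did not overlap either (1.26, SE 0.15, edgeR adjusted p = 6.85e-12). Cacna2d4, known from the retina, rose on 46 reads in PluriSIn#2 and 10 in DMSO (2.20, SE 0.52, edgeR adjusted p = 0.000101). Its log2 fold change was 2.87 without DMSO replicate 3 and 1.64 without DMSO replicate 1, and a filter at 1 CPM left it untested. On the authors' FPKM, which divide by gene length, Cacna2d1 held 39.0% ± 1.30 of the summed level of the 4 genes in PluriSIn#2 and 80.6% ± 2.89 in DMSO (SD, n = 3 each). Cacna2d2 held 40.5% ± 0.314 in PluriSIn#2 and 10.6% ± 2.28 in DMSO. In the treated cells these shares of Cacna2d1 and Cacna2d2 lay close together. Per kb of exon in GENCODE, Cacna2d2 was also the higher of the pair there, at 2.92 CPM per kb beside 2.43 for Cacna2d1. The sum changed little beside this, at 10.1 to 10.6 FPKM in PluriSIn#2 and 8.59 to 9.85 FPKM in DMSO.

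Upstream sequence of this pair is shown because Cacna2d1 and Cacna2d2 encode relatives and moved in opposite directions. As above, each run is the 250 bases before the RefSeq start on GRCm38.p6, with capitals for GC boxes. The Cacna2d1 run is chr5:15934441-15934690 on the plus strand, with 82.4% G and C and 6 GC boxes, some overlapping. The Cacna2d2 run is chr9:107399630-107399879 on the plus strand, with 74.4% G and C and 1 GC box. GENCODE starts Cacna2d2 at 107399612, so by that annotation the run lies inside the gene.
Cacna2d1: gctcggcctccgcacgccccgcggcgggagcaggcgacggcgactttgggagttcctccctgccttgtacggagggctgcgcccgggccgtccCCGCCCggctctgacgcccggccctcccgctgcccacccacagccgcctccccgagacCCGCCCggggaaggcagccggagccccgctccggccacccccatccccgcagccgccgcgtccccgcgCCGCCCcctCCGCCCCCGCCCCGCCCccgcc
Cacna2d2: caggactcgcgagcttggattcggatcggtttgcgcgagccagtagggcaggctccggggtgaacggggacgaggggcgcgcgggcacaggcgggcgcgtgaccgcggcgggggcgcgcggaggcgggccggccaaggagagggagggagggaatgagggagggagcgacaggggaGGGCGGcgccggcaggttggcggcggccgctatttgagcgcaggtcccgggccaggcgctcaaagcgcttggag

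Windows of 300 bases, from 250 before to 50 after the start, were in the RefSeq table for 29 of the 39 members, 39 windows in all. The motifs searched, on both strands, were the GC box, the TATA box (TATAAA), the CHR element of cell cycle genes (TTTGAA), the E2F site (TTTCCCGC or TTTGGCGC), the neuronal silencer element RE1 and the left and right arms of RE1 (CAGCACC and GGACAG). A GC box was found in 41.0% of the members' windows and 35.7% of all windows, a TATA box in 2.56% and 13.6%, and a CHR element in 12.8% and 17.9%. The right arm of RE1 was found in 17.9% and 22.2%. No member window held the left arm, the whole RE1 or the E2F site, which were found in 7.14%, 0.0365% and 1.56% of all windows. Of 14 members with a window that rose, 7 held a GC box, as did all 3 with a window that fell. Here a gene counted if any of its windows held the box, so these counts cannot be set beside the shares of windows. Cacna1h and Cacng4 also fell but had no window. A match is a description of these letters and not a site.

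Calcium channel beta genes encode the cytosolic subunit that brings alpha subunits to the membrane and tunes their gating. Of the 4, 3 were higher and none lower, beside 41.7% and 40.9% of all genes tested. Cacnb1 had 36.2, 38.9 and 38.8 CPM in PluriSIn#2 and 20.3, 18.1 and 17.7 CPM in DMSO. The treated values were 2.03-fold higher in the mean and did not overlap with the controls (log2 fold change 1.02, SE 0.068, edgeR adjusted p = 6.13e-25). Cacnb4 had 9.53, 8.83 and 9.25 CPM in PluriSIn#2 and 4.42, 4.44 and 4.91 CPM in DMSO, also without overlap (1.001, SE 0.13, edgeR adjusted p = 4.60e-11). For this gene 15.99% of the exonic length is shared with a transcript on the other strand, A430018G15Rik. Cacnb3, the most abundant per length in DMSO, had 27.5, 29.6 and 29.9 CPM in PluriSIn#2 and 23.2, 24.5 and 23.8 CPM in DMSO (0.28, SE 0.067, edgeR adjusted p = 9.58e-05). With treated replicate 1 alone it was just short of the threshold (0.21, edgeR adjusted p = 0.0511). Cacnb2 was not called, at 12.7 ± 1.30 CPM in PluriSIn#2 and 12.2 ± 1.40 CPM in DMSO (SD, n = 3 each, 0.06, edgeR adjusted p = 0.600). Cacnb1 held 42.4% ± 0.691 of the family's FPKM in PluriSIn#2 and 30.5% ± 2.34 in DMSO, and Cacnb3 held 40.5% ± 0.524 in PluriSIn#2 and 48.5% ± 1.12 in DMSO (SD, n = 3 each).

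**Figure D3:**
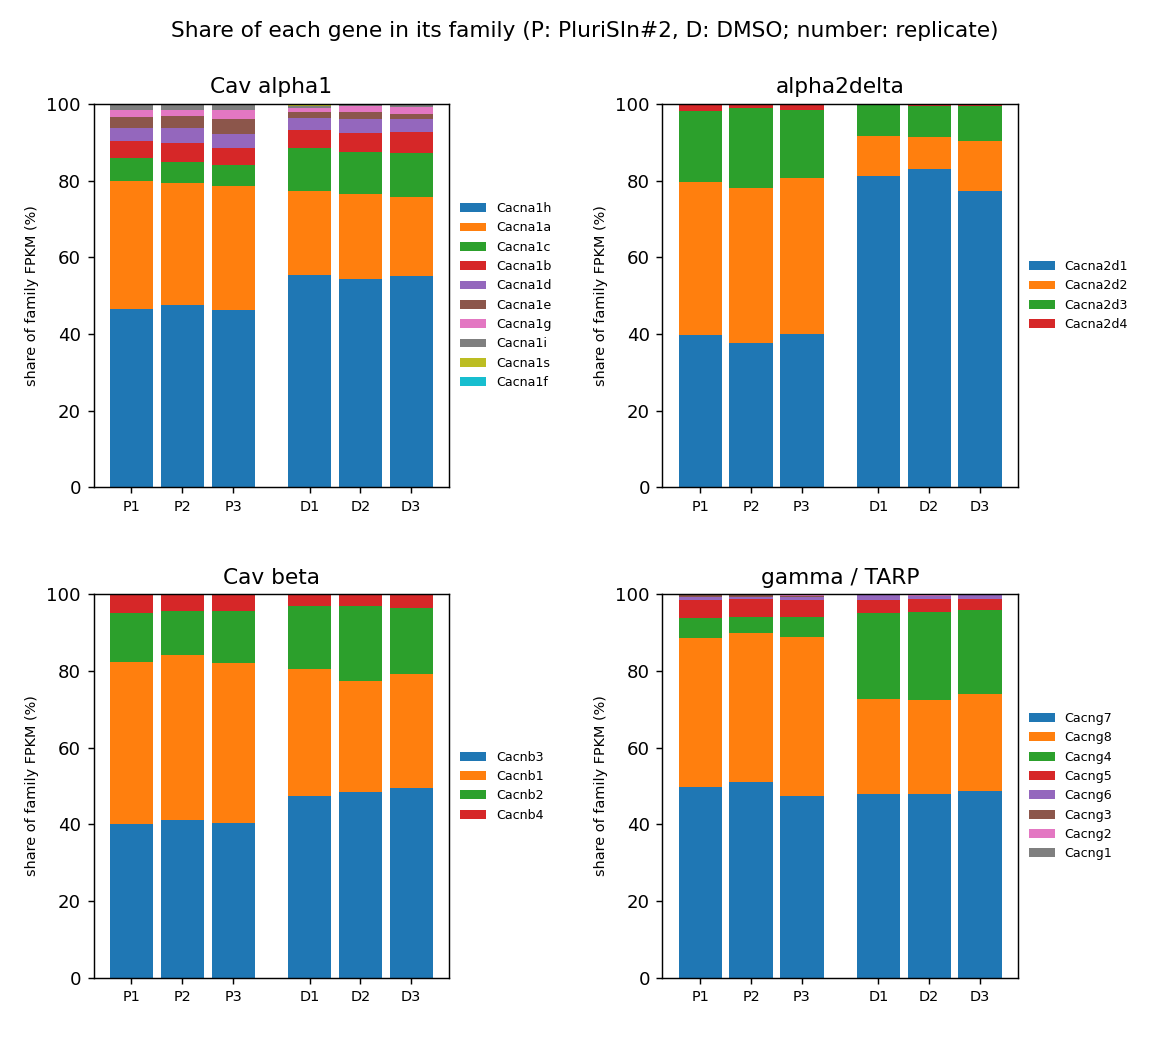
Share of each calcium channel gene in the summed FPKM of its family, in percent, per library (P, PluriSIn#2; D, DMSO; number, replicate). Within alpha2delta genes the Cacna2d1 share was 37.5% to 39.9% in PluriSIn#2 and 77.4% to 83.1% in DMSO, and within the gamma group the Cacng4 share was 4.07% to 5.35% in PluriSIn#2 and 21.7% to 23.1% in DMSO.

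In the gamma group 5 of 7 tested genes were higher and Cacng4 was lower, where 41.7% of all genes tested were higher and 40.9% lower. The higher ones include Cacng2 and Cacng3, which reached the filter's cutoff in all treated libraries but not in all DMSO libraries. For them the filter favours a rise. Cacng4 encodes a TARP that is transcribed in oligodendrocyte precursors and developing neurons. It had 9.36, 6.85 and 9.37 CPM in PluriSIn#2 and 36.5, 36.1 and 33.5 CPM in DMSO. Its mean was 4.15-fold lower in the treated cells with no overlap (log2 fold change -2.05, SE 0.085, edgeR adjusted p = 1.16e-38). Among the oligodendrocyte precursor markers in the same libraries, Gpr17 was at 0.130 ± 0.0818 CPM in PluriSIn#2 and 33.2 ± 0.648 CPM in DMSO, and Sox10 at 0.883 ± 0.114 CPM in PluriSIn#2 and 24.3 ± 1.29 CPM in DMSO. Bcas1 was at 1.27 ± 0.440 CPM in PluriSIn#2 and 28.2 ± 0.121 CPM in DMSO, and Lhfpl3 at 3.59 ± 0.646 CPM in PluriSIn#2 and 27.4 ± 1.007 CPM in DMSO. Pdgfra was at 4.91 ± 0.414 CPM in PluriSIn#2 and 56.9 ± 3.00 CPM in DMSO, and Ptprz1 at 2931 ± 38.9 CPM in PluriSIn#2 and 2770 ± 24.8 CPM in DMSO (SD, n = 3 each). Cspg4, Olig2 and Olig1 fell less (log2 fold changes of -0.79, -0.58 and -0.07), and Cnksr3 was not called (-0.02). The part that precursor cells have in the fall of Cacng4 was not tested.

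The other TARP genes rose or were scarce. Cacng7, a close relative of Cacng5 and the most abundant of the group, had 74.9, 72.3 and 69.8 CPM in PluriSIn#2 and 65.6, 62.8 and 63.3 CPM in DMSO, a small rise without overlap (0.18, SE 0.044, edgeR adjusted p = 0.000161). Cacng8, the main TARP gene of hippocampal neurons, had 67.7, 66.0 and 71.0 CPM in PluriSIn#2 and 40.6, 38.4 and 38.0 CPM in DMSO (0.81, SE 0.050, edgeR adjusted p = 7.10e-27). Cacng5, a TARP gene known from Bergmann glia, had 31.9, 31.4 and 30.4 CPM in PluriSIn#2 and 21.4, 19.2 and 18.3 CPM in DMSO (0.67, SE 0.070, edgeR adjusted p = 1.10e-14). Neither Cacng8 nor Cacng5 had groups that overlapped. Cacng2, the gene of stargazin, had 1.07, 1.04 and 0.937 CPM in PluriSIn#2 and 0.224, 0.675 and 0.427 CPM in DMSO, low but apart (1.19, SE 0.40, edgeR adjusted p = 0.00483). Of its exonic length 5.86% is shared with a transcript on the other strand, A730060N03Rik. Cacng3 rose on 47 reads in PluriSIn#2 and 6 in DMSO (2.93, SE 0.56, edgeR adjusted p = 2.48e-06). The muscle-type gene Cacng6 was not called (1.04 ± 0.299 CPM in PluriSIn#2 and 1.25 ± 0.274 CPM in DMSO, SD, n = 3 each, -0.27, edgeR adjusted p = 0.423). Cacng1, also a muscle gene, had 7 and 6 reads and was not tested.

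Neighbours on a chromosome did not always move together. Cacng4 lies on the minus strand of chromosome 11 from 107732357 to 107794557, and Cacng5, on the same strand 80.05 kb away, was higher while Cacng4 was lower. On chromosome 7 the plus-strand row of Cacng7, Cacng8 and Cacng6 held log2 fold changes of 0.18, 0.81 and -0.27, with gaps of 22.5 kb and 8.55 kb, the last of these genes not called. On chromosome 6 Cacna1c, which was lower, and Cacna2d4, which was higher, lie on opposite strands 40.1 kb apart. Scn2b and Scn4b were both higher.

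Members differed widely in level per length. On the authors' FPKM, 20 of the 39 exceeded 1 FPKM in either group mean. Among the highest in PluriSIn#2 were Cacng7 (87.7 ± 3.14 FPKM) and Cacng8 (70.5 ± 3.61 FPKM). Among the highest in DMSO were Cacng7 (73.9 ± 1.69 FPKM), Cacng8 (38.1 ± 0.865 FPKM) and Cacng4 (34.4 ± 1.62 FPKM; SD, n = 3 each). Per kb of exon in GENCODE, Cacng7 was at 29.6 CPM per kb in PluriSIn#2 and 26.2 CPM per kb in DMSO, and Cacng8 at 29.1 CPM per kb in PluriSIn#2 and 16.6 CPM per kb in DMSO. The 10 highest genes on each scale were the same in DMSO and shared 9 in PluriSIn#2, where Cacng4 was among them only by FPKM and Cacna2d2 only per kb of exon. The order among genes depends on the length used. Summed FPKM of the 10 calcium alpha1 genes was 24.6 to 25.8 in PluriSIn#2 and 21.5 to 23.1 in DMSO. The 9 sodium alpha genes summed to 6.05 to 6.33 FPKM in PluriSIn#2 and 4.32 to 4.66 FPKM in DMSO. Scn8a held 65.5% ± 1.42 of that sum in PluriSIn#2 and 79.9% ± 2.06 in DMSO (SD, n = 3 each). That sum leaves out Scn2a1, which is outside the rule and was at 1.59 FPKM in PluriSIn#2 and 0.688 FPKM in DMSO. With it the Scn8a share would be smaller in both groups. Within the alpha1 genes the Cacna1a share was 32.6% ± 0.751 in PluriSIn#2 and 21.6% ± 0.723 in DMSO (SD, n = 3 each).

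Many of these genes are long. The median span of the 32 tested members was 111 kb, beside 24.9 kb for the 13906 tested genes with a span in GENCODE. Across the 32 members Spearman's rho between span and log2 fold change was -0.22, and across all 13906 genes it was -0.05. These are descriptions across genes, which share the 6 libraries and are not independent replicates. Of 17 members over 100 kb, 9 were higher and 3 lower (Scn7a, Cacna1c and Cacna2d1), and of 15 shorter ones, 12 were higher and 2 lower. Among all tested genes over 100 kb 41.9% were higher and 43.5% lower, and among those up to 100 kb 41.7% and 40.6%. The longest member, Cacna2d3 with a span of 817 kb, was higher.

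**Figure D4:**
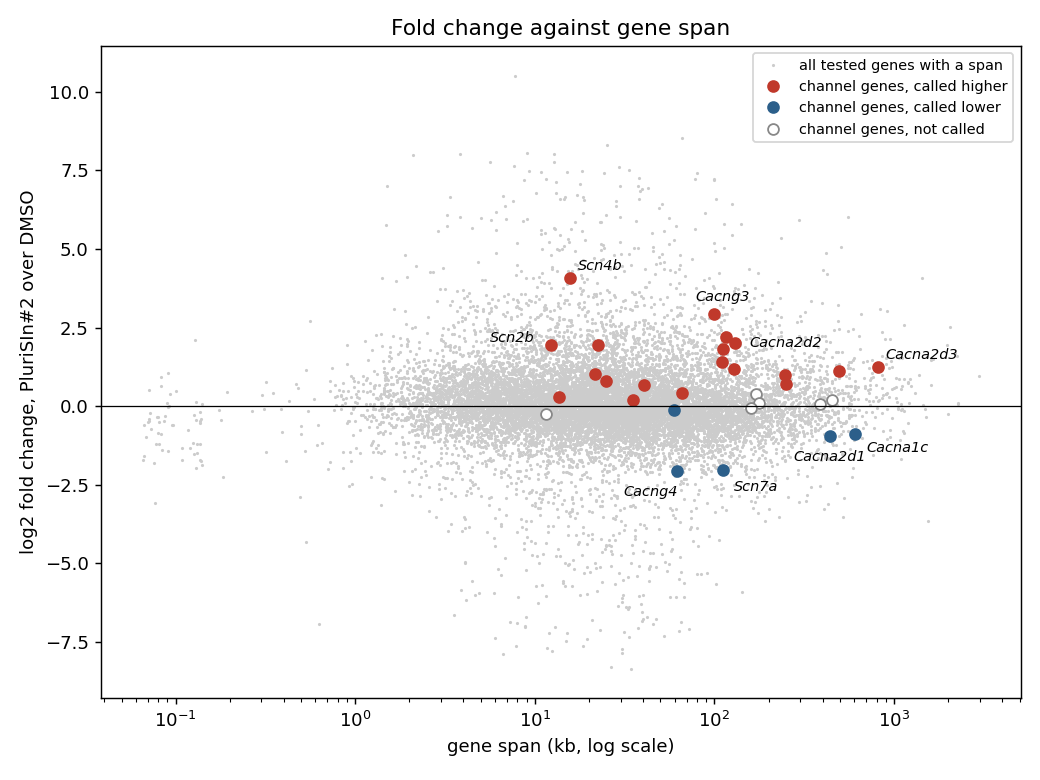
Log2 fold change of PluriSIn#2 over DMSO against the genomic span of each gene in kb (log axis). Grey points are the 13906 tested genes with a span and large points are 30 of the tested channel genes. The channel genes drawn as higher run from Scn2b at 12.3 kb to Cacna2d3 at 817 kb.

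Genes whose products work with these channels were read from the same fit, in which 41.7% of all genes tested were higher and 40.9% lower. Of 9 genes for anchors of the axon initial segment and node, 8 were higher and 1 lower, with a median log2 fold change of 0.39. Nfasc, the adhesion molecule neurofascin, was at 184 ± 0.668 CPM in PluriSIn#2 and 53.9 ± 2.65 CPM in DMSO (SD, n = 3 each, 1.77, edgeR adjusted p = 1.35e-60). Ank2 (0.33), Cntnap2 (1.58) and the spectrin gene Sptbn4 (1.47) rose with it, and the spectrin gene Sptan1 fell slightly (-0.12). Neurofascin also has a glial form, which gene counts do not separate. Of 9 tested sodium pump genes 6 were higher, 2 lower and 1 not called, with a median of 1.31. The pump beta genes Atp1b1 (1.43) and Atp1b2 (1.12) rose.

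Regulators of the channels were mixed, with 10 of 22 tested genes higher, 9 lower and 3 not called (median 0.22). These 45.5% higher and 40.9% lower lie near the 41.7% and 40.9% of all genes tested. Lrp1 (1.23), a receptor that binds alpha2delta proteins, and the thrombospondin gene Thbs1 (2.19), whose product is a ligand of the Cacna2d1 protein, rose. Kcnip3, which encodes the calcium sensor DREAM, was at 82.6 ± 1.61 CPM in PluriSIn#2 and 252 ± 2.90 CPM in DMSO (SD, n = 3 each, -1.61, edgeR adjusted p = 2.21e-62). Among related channel genes outside the rule 7 of 11 were higher and 2 lower (median 0.55), with Cachd1, which encodes an alpha2delta-like protein, at 1.02, Fam155a, a partner of the sodium leak channel, at 1.22, and Unc79, another partner of it, at -0.91. Among AMPA receptor subunits and partners 6 of 14 were higher, 5 lower and 3 not called (median 0.24), or 42.9% higher and 35.7% lower. Gria4 (1.86), Gria3 (1.47) and Gria1 (2.20), the receptor subunits that TARPs accompany, rose, while Gria2 was at -0.06 and Nptx2, a secreted pentraxin, at -2.63. Of 34 calcium signalling genes 12 were higher, 17 lower and 5 not called (median -0.09). The calmodulin gene Calm2 (-1.04), the kinase gene Camk2b (-1.02) and the store sensor gene Stim2 (-1.61) fell, and the calcium pump gene Atp2b2 (2.10) rose. Among the genes that this and the preceding paragraph say rose or fell, the highest edgeR adjusted p was 3.75e-09, that of Sptan1.

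Markers of neurons were also read, since many channel genes are neuronal, from the fit where 41.7% of all genes tested were higher and 40.9% lower. Of 15, 11 were higher, 2 lower and 2 not called, none was at 0, and their summed level was 699 to 710 CPM in PluriSIn#2 and 1090 to 1151 CPM in DMSO, because the abundant Map2 was lower. Rbfox3 was at 5.91 ± 0.945 CPM in PluriSIn#2 and 2.43 ± 0.315 CPM in DMSO, and Snap25 at 13.3 ± 0.246 CPM in PluriSIn#2 and 6.88 ± 1.05 CPM in DMSO (SD, n = 3 each). The 2 lower ones were Elavl4 and Map2 (log2 fold changes of -2.07 and -1.22), and Tubb3 and Dcx were not called. Of 12 mural cell, fibroblast and smooth muscle markers 8 of 10 tested were higher, with a sum of 237 to 241 CPM in PluriSIn#2 and 35.2 to 36.5 CPM in DMSO, although the smooth muscle genes Acta2 and Cnn1 were not called. Of 8 endothelial markers 6 of 7 tested were higher (30.7 to 33.6 CPM in PluriSIn#2, 6.51 to 7.73 CPM in DMSO), and of 8 ependymal markers 6 of 7 tested were higher (162 CPM in PluriSIn#2, 40.4 to 43.4 CPM in DMSO). None of these markers was at 0 in either group. The part that such cells have in the changes of Cacna2d2 and the other members was not tested.

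In the authors' deposited table, 38 of the 39 members were listed. All 26 members called here had the same sign there, and 25 of them had an adjusted p under 0.05 in the authors' deposited table, 20 higher and 5 lower.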

How the data were processed

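RNA of 6 samples of adult neural stem cells was sequenced, 3 libraries per group, grouped by sample title. The submitters' processing notes name the build mm10 and the tools STAR, HTSeq and DESeq; no source used here gives their versions, the annotation, the strand setting or filters. One deposited file holds raw counts, as whole reads for each gene symbol. The deposited FPKM table gives values the authors normalized for gene length and depth, with their own log2 fold changes (PluriSIn#2 over DMSO) and p-values, raw and adjusted. There 25 rows had gene names that had turned into dates, none of them a member.

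From these counts edgeR 4.0.16 (under R 4.3.3) ran filterByExpr (which asks here for 0.555 CPM in 3 libraries), TMM scaling, and the two-sided glmQLFit and glmQLFTest on group alone, Benjamini-Hochberg adjustment over 14417 genes and a threshold of 0.05. Adjusted p-values for single genes come from this fit unless another tool is named. CPM use library totals times TMM factors. SE is the log2 fold change divided by the root of its F statistic. DESeq2 1.42.0 was an alternative. The procedure was tested on simulated data in which only a small part of the genes changed. Its behaviour where most genes change, as here, was not tested. Replicates differed by more than sampling noise (chi-square per degree of freedom 1.56 to 2.22). Floors and intervals cover counting error only, and genes with few reads move in coarse steps. Gene spans and exons are from GENCODE M21, and promoter sequences from RefSeq.

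The members and gene lists were chosen with earlier results of these data known, and no list was tested as a set. A few members and companions are counted but not reported here by name. Each library's value is given for the other members called with at least a 2-fold change and a mean of 1 CPM in a group, and for the member with the highest FPKM of each role; up to 4 companions per list were named by smallest p, and others named were chosen after their values were seen.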

Additional observations from a re-analysis of the deposited data

How the results depend on the processing

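Over 13 alternative settings, 23 of the 26 called members kept their direction and their side of the threshold wherever a setting gave a value. The exceptions were Cacna1g, Cacna1h and Cacnb3, and a filter at 1 CPM left Cacna2d4, Cacng2 and Cacng3 untested. The number of members called was 20 to 22 higher and 5 lower over the fits that left out a library, 20 higher and 5 lower with DESeq2, 19 and 5 with a filter at 1 CPM, and 22 and 5 with no filter, which added Scn9a. With treated replicate 1 alone, where only the controls supply the spread, it was 20 and 5. The filter at 1 CPM left 3 gamma genes called higher, by construction with fewer genes tested. T-type genes called higher numbered 1 with DESeq2, 1 with treated replicate 1 alone and 1 to 2 over the fits that left out a library, and with library totals alone 0 were called lower; the cause was not tested. Neither Cacnb2 nor Cacng6 was called, and each changed sign once: Cacnb2 to -0.029 without PluriSIn#2 replicate 3 (log2 fold change -0.029 to 0.15 over the fits that left out a library) and Cacng6 to a log2 fold change of 0.053 with treated replicate 1 alone. Same-numbered replicates share only a number (correlations of their deviations from -0.0025 to 0.0293), and a replicate block gave 21 members higher and 5 lower, and 5984 and 5867 genes in all. Scaling by library totals moved the median of all genes by 0.07 on the log2 scale. Depth limits the 7 members not tested, each with at most 22 reads per group.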
